A study of Mus musculus with 4 samples.

Results

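Neurons that use peptide transmitters make them as long precursors, which are sorted with granins into dense-core vesicles and cut there at pairs of basic residues. The genes described here are 29 peptide precursors, 7 granins and granin-like proteins, and 4 processing enzymes, 40 in all, chosen by symbol from a list of these roles. Of the 40, 39 were among the 32531 gene names counted, and Spx was not. Ribosome-bound RNA came from the deep nuclei of the cerebellum of untreated adult mice of the transgenic line Slc17a6-TRAP (JX883), in which the ribosomal protein Rpl10a fused to EGFP is made by cells that use the Slc17a6 transgene. The 4 libraries form 1 group, replicates 1 to 4, and 3 mice were pooled for each. The library number in the labels is 1300, 1301 or 1302 for the first 3 replicates, but 1476 for replicate 4. Nothing in the labels gives the sex of the mice or says that the pools were separate, and any p-value therefore measures only how far these libraries spread, which may in part be technical. No input RNA was analysed here, so the values are levels in the pulldown and not enrichments.

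In the cerebellar nuclei, glutamatergic neurons send the main output of the cerebellum, and peptides are known mostly as partners of fast transmitters. Prohormone convertases, encoded by Pcsk1 and Pcsk2, cut the precursor, carboxypeptidase E (Cpe) trims the basic residues that remain, and Pam amidates the end of many peptides. The products of Chga, Chgb and Scg2 help to form the vesicle core, Scg5 encodes the chaperone of the Pcsk2 product, and Pcsk1n encodes proSAAS, an inhibitor of the Pcsk1 product.

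Sst and Penk led the precursors, and the coding sequence of the peptides they make is shown for that reason, from GENCODE transcripts on mm10, 5′ to 3′, with adjacent codons for basic residues in capitals. The last 16 codons of Sst hold the short form of somatostatin after its cleavage site, and the last 17 codons of Cort hold the related peptide cortistatin.
Sst: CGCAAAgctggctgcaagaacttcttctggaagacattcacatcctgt
Cort: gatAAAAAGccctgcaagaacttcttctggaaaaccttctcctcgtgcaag
Compared base by base from the first codon shown, 34 of the 48 bases of the Sst segment matched those of Cort (70.8%). Sst lies on chromosome 16 at 23889573 to 23890958 and Cort on chromosome 4 at 149125034 to 149126763, both on the minus strand. The 268 codons of Penk hold 6 copies of Met-enkephalin and 1 of Leu-enkephalin, and 5 of the 7 copies lie between paired basic codons on both sides. The first copy and the Leu-enkephalin copy show the arrangement.
Met-enkephalin in Penk: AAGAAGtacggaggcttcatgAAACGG
Leu-enkephalin in Penk: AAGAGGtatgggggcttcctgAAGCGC
Penk lies on chromosome 4 at 4133531 to 4138819 on the minus strand. The related opioid gene Pdyn, with 248 codons, holds 3 copies of Leu-enkephalin and 0 of Met-enkephalin. These segments were chosen after the levels were seen.

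Counts assigned to genes ranged from 9621762 to 10988373 per library, and levels are counts per 1000000 of these (CPM), which are not divided by gene length. A gene without a count may still be present at up to 0.273 to 0.312 CPM, the level of 3 counts, and this limit covers counting error only. All 9 markers fixed for glutamatergic nuclear neurons, Slc17a6 among them, reached 1 CPM in every library, and their summed level ran from 2507 to 3066 CPM. Slc17a6 alone gave 2011 to 2309 CPM of that sum, and each of the other markers varied more between libraries for its level. Replicate 1 stood apart by Tcf7l2, a transcription factor of thalamic and midbrain neurons, at 2486 CPM there against 8.55 to 42.0 CPM in the other libraries (log2 fold change 6.48, edgeR adjusted p = 5.6e-04). In bulk RNA, fewer cells of a type and less RNA per cell cannot be told apart.

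Of the 39 genes measured, 18 reached 1 CPM in every library, 13 reached it in some but not all, and 8 stayed under it everywhere. The 18 were all 7 granins, all 4 enzymes and 7 of 28 precursors, namely Sst, Penk, Cck, Adcyap1, Grp, Pdyn and Nmb. Hcrt, Avp and Npff had no count in any library. Npff shares exons on the same strand with Gm28047, so its reads may have been left out as ambiguous, and the limit of 3 counts need not hold for it. The summed level of the precursors was 2192, 1107, 916 and 1892 CPM in replicates 1 to 4. That of the granins was 2048, 1687, 1447 and 1567 CPM, and that of the enzymes 748, 644, 660 and 504 CPM. The summed level of the precursors was thus high in replicates 1 and 4, whereas that of the enzymes was lowest in replicate 4. Sst alone gave 49.7 to 56.5% of the precursor counts, so the precursor sum largely follows Sst. Single precursors did not all follow it, and Tac1 was lowest in replicate 4. Sst, Penk and Cck together gave 91.1, 85.7, 94.0 and 94.3% of the precursor counts.

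**Figure D1:**
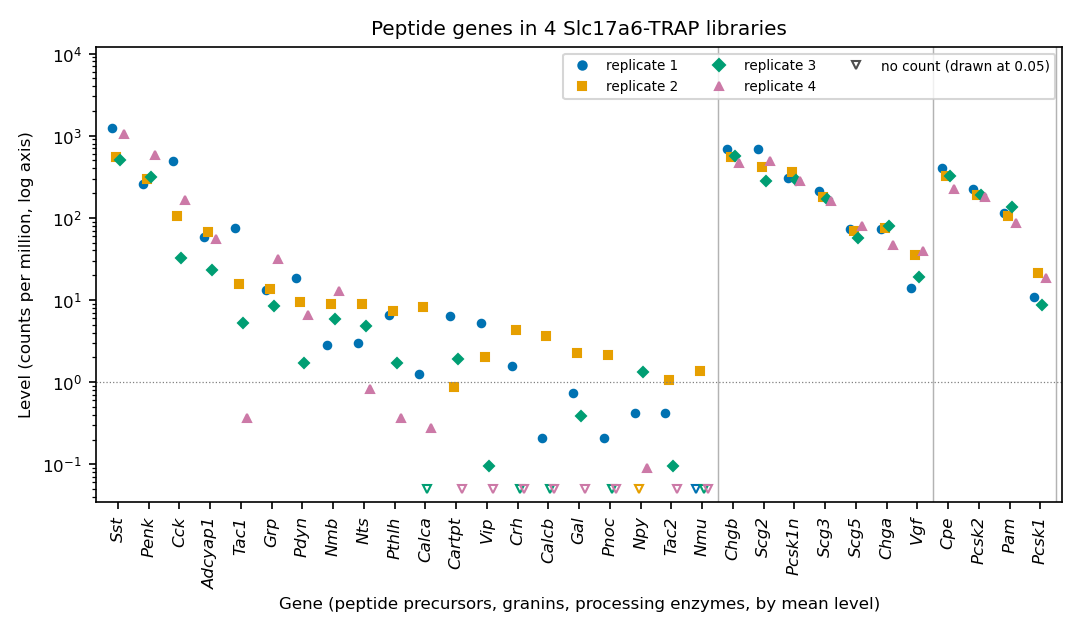
Level in CPM (log axis) of the 31 genes with at least 10 counts over the libraries, by role and mean level, with 1 point per library and open triangles at 0.05 for libraries with no count. Pcsk2, Pcsk1n, Scg3 and Chgb lie close together across libraries, Vgf, Scg2 and Pcsk1 spread about as far as Sst and Penk, and Tac1 runs from 0.364 to 76.1 CPM.

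Sst, the precursor of somatostatin, an inhibitory peptide, was the most abundant precursor at 1239, 550, 512 and 1043 CPM in replicates 1 to 4, a mean of 836 ± 362 CPM (SD, n = 4) and of 702 ± 296 CPM without replicate 1. It was high in replicates 1 and 4 and low in replicates 2 and 3. The ribosomal RNA precursor Rn45s ran the other way, at 4.99, 14.2, 13.6 and 4.92% of gene counts. With Rn45s left out of the totals, Sst stood at 1305, 641, 593 and 1097 CPM and kept that pattern, as did the summed precursors at 2308, 1290, 1060 and 1990 CPM. Any further part of what moves with Rn45s was not tested. Penk, the enkephalin precursor, stood at 260, 293, 316 and 576 CPM, with replicate 4 above the others. Cck, the cholecystokinin precursor, stood at 497, 105, 32.8 and 165 CPM. Cck was the most uneven of the precursors at 1 CPM in every library, with a level in replicate 1 that was 15.2-fold that in replicate 3. Its mean of 200 ± 205 CPM rested on replicate 1 and was 101 ± 66.1 CPM without it. The exons of Penk overlap those of A830012C17Rik on the opposite strand. The strand setting and annotation of the counting are not given, so reads there may be missing from Penk or wrongly counted to it.

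Adcyap1, the precursor of the peptide PACAP, stood at 58.0, 67.7, 23.0 and 54.8 CPM, lower in replicate 3 than in the other libraries. The bombesin-like precursors Grp and Nmb were highest in replicate 4. Grp stood at 13.1, 13.8, 8.53 and 31.3 CPM. Nmb stood at 2.81, 9.02, 5.94 and 12.8 CPM. Nmb shares exons on the same strand with Sec11a in the annotation, so its counts are uncertain. Pdyn, the dynorphin precursor, stood at 18.7, 9.41, 1.72 and 6.64 CPM, highest in replicate 1 and lowest in replicate 3, as for Cck.

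Among the 13 precursors that reached 1 CPM in some libraries only, Tac1, the precursor of substance P, had the widest range. It stood at 76.1, 15.4, 5.17 and 0.364 CPM, a 209-fold span, and at 6.99 ± 7.69 CPM (n = 3) without replicate 1. Vip, the precursor of vasoactive intestinal peptide, and Cartpt, that of CART peptides, were also highest in replicate 1, at 5.30 and 6.34 CPM. Both had no count in replicate 4. Another set was highest in replicate 2. Calca and Calcb, the precursors of calcitonin gene-related peptides, stood there at 8.15 and 3.69 CPM, against at most 1.25 and 0.208 CPM elsewhere. These genes are close paralogs, and reads that align to both would be left out as not unique, so both levels may be too low. Crh, the corticotropin-releasing hormone gene, stood at 1.56 and 4.27 CPM in replicates 1 and 2 and had no count in replicates 3 and 4. Nts, the neurotensin precursor, stood at 3.01, 8.83, 4.79 and 0.819 CPM, and Pthlh, the gene of parathyroid hormone-related peptide, at 6.65, 7.28, 1.72 and 0.364 CPM. Gal, Pnoc, Tac2 and Nmu, the precursors of galanin, nociceptin, neurokinin B and neuromedin U, peaked in replicate 2 at 2.23, 2.13, 1.07 and 1.36 CPM. Exons of Nmu overlap 4930432L08Rik on the opposite strand. Npy, the neuropeptide Y gene, peaked in replicate 3 at 1.34 CPM.

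The precursors under 1 CPM in every library were Pomc, Ucn, Trh, Hcrt, Oxt, Avp, Cort and Npff. Cort had 8 counts in replicate 2 and 0 in the other libraries, while Sst had from 5347 to 11926 counts. Pomc, from which melanocortins and an endorphin are cut, had 4, 2, 0 and 2 counts. Ucn, Trh and Oxt each had counts in 1 library only, at 2, 1 and 1 counts. Apart from Cort in replicate 2 and Pomc in replicate 1, these values lie at or under the level of 3 counts, and no difference between libraries was read from them.

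Among the granins, Chgb, encoding chromogranin B, stood at 683, 553, 560 and 462 CPM. Scg2, the secretogranin II gene, stood at 688, 414, 277 and 493 CPM, again low in replicate 3. Pcsk1n stood at 305, 360, 287 and 284 CPM, within 1.27-fold across libraries, and its exons overlap those of Eras on the opposite strand. Scg3, which encodes a granin that binds chromogranin A and the vesicle membrane, stood at 210, 179, 169 and 161 CPM. Scg5 stood at 73.2, 70.0, 56.2 and 79.8 CPM. Chga, encoding chromogranin A, stood at 73.9, 74.7, 79.2 and 46.9 CPM, lower in replicate 4 than in the rest. Vgf, whose product is cut into several peptides and whose expression is known to rise with neurotrophins, was the least abundant and the most uneven granin at 14.1, 35.3, 19.1 and 39.9 CPM.

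Of the enzymes, Pcsk2 was the steadiest gene of the whole list at 222, 191, 190 and 177 CPM (195 ± 18.9 CPM), although 2 annotated genes, Pcsk2os1 and Pcsk2os2, overlap its exons on the opposite strand. Cpe stood at 403, 327, 325 and 222 CPM, lowest in replicate 4. Pam, which shares exons on the same strand with B230216N24Rik, stood at 113, 105, 136 and 86.4 CPM, also lowest in replicate 4. Pcsk1 stood at 10.8, 21.1, 8.72 and 18.6 CPM, far under Pcsk2 in each library. Pcsk1 and Vgf both had their 2 highest values in replicates 2 and 4.

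To describe the spread, the coefficient of variation (CV, the SD as a percent of the mean) was taken over the 4 libraries. The median CV was 33.5% over the 11213 genes at 1 CPM in every library. Pcsk2 at 9.69%, Pcsk1n at 11.4%, Scg3 at 12.0%, Scg5 at 14.2% and Chgb at 16.1% were among the steady genes, and 3.49% of those 11213 genes had a lower CV than Pcsk2. Cck at 103% and Pdyn at 78.2% lay at the other end, and 99.0% of genes had a lower CV than Cck. All 7 precursors at 1 CPM in every library lay above the median, from 38.1% for Adcyap1, as did Scg2, Vgf and Pcsk1, while the other 5 granins and 3 enzymes lay below it. Low counts raise a CV, so the values for Pdyn, Grp and Nmb carry more counting error than those for Cck or Sst. By edgeR's dispersion, which allows for counting error and was ranked over the 15083 genes tested, the order differed. There 22.1% of genes were lower than Sst, 23.7% than Penk and 31.6% than Adcyap1, so these precursors lay below the middle. Cck at 56.0%, Grp at 51.8%, Nmb at 63.2% and Pdyn at 64.5% lay above it. Every granin and enzyme lay below it, from 0.159% for Chgb to 49.7% for Pcsk1. These dispersions are drawn toward a trend over level, and as a CV that of Pcsk2 and that of Chgb were both 26.2%. The 15083 genes also include many that do not reach 1 CPM in every library. A gene of high level may thus rank low for its level, and the rank by dispersion and the rank by CV do not compare like with like.

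**Figure D2:**
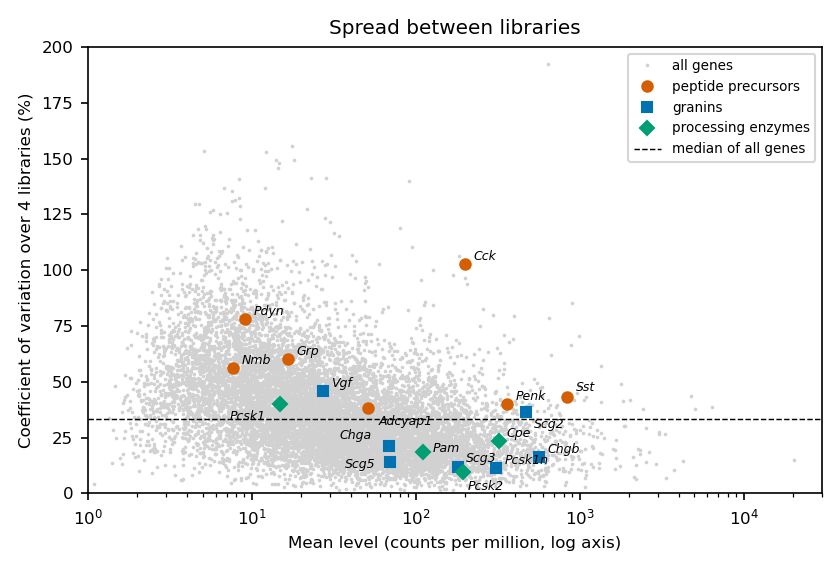
Coefficient of variation over 4 libraries (percent) against mean level (CPM, log axis) for all 11213 genes at 1 CPM in every library (grey) and the 18 peptide genes among them, with the median of all genes at 33.5% as a dashed line. Precursors lie above the line, led by Cck at 103%, and Pcsk2, Pcsk1n, Scg3, Scg5 and Chgb lie near the bottom.

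To ask whether 1 library differed from the rest, each was tested against the other 3 with edgeR's quasi-likelihood test and Benjamini-Hochberg adjustment over 15083 genes. Of the 39 genes, 30 passed the filter on low counts, and Nmu and the 8 precursors under 1 CPM did not. No member passed an adjusted p of 0.05 in any of the 4 comparisons. Of all genes tested, 0.0199% were called for replicate 1, all of them higher there, 0% for replicate 2, 0% for replicate 3 and 0.0464% for replicate 4, where 0.0398% were higher and 0.00663% lower. At an unadjusted p under 0.05 there were 2, 1, 4 and 5 members, all precursors, for replicates 1 to 4, which is 6.67, 3.33, 13.3 and 16.7% of the 30 tested. Over all 15083 genes the shares at that p were 3.30, 0.517, 7.01 and 14.7%. Some precursors passed the filter only through the library where they were high, so nothing is read from the members' shares. DESeq2's Wald test called 0, 0, 1 and 2 members, of 26, 7, 81 and 380 genes in all. All granins and enzymes were tested. Their median log2 fold changes in replicates 1 to 4 were -0.05, 0.01, -0.11 and -0.01 for the granins and -0.05, 0.02, 0.05 and -0.16 for the enzymes, against -0.10, -0.09, -0.10 and -0.16 over all genes. No median is given for the precursors, since several had no count in a library and their fitted values are then no bound.

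The values of Cck, Tac1 and Penk are given because they were the only members that any alternative called. They do not all rank first by p, since Grp in replicate 4 had a lower one (log2 fold change 1.57 ± 0.54, edgeR adjusted p = 0.240) than Tac1 there. Cck was higher in replicate 1 by a log2 fold change of 2.08 ± 0.59 (SE, edgeR, adjusted p = 0.9997) and lower in replicate 3, with -2.87 ± 0.78 (edgeR, adjusted p = 0.416). Penk in replicate 4 had a log2 fold change of 1.14 ± 0.29 (SE, edgeR, adjusted p = 0.169). These values did not pass, but some of the alternatives did. For Cck in replicate 1, 1 of 8 alternatives passed, edgeR with no filter on low counts, and adjusted p ranged from 5.7e-04 to 0.9999. For Cck in replicate 3, 3 of 8 passed (adjusted p from 0.00107 to 0.438), namely DESeq2, no filter, and leaving out replicate 2. For Penk in replicate 4, 2 of 8 passed, DESeq2 and no filter (adjusted p from 0.0203 to 0.307). Tac1 in replicate 1 had a log2 fold change of 3.28 ± 0.999 (edgeR, adjusted p = 0.9997) and passed in 2 of 7 alternatives, with no filter and without replicate 3 (adjusted p from 0.0013 to 0.9998). Tac1 in replicate 4 had -6.19 ± 1.99 (edgeR, adjusted p = 0.259) and passed in 4 of 7, with DESeq2, no filter, without replicate 2 and without replicate 3 (adjusted p from 1.7e-04 to 0.259).

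Markers of other cells also differed between the libraries, and their levels stand here beside those of the precursors. Of all genes with at least 10 counts, 33.4% were highest in replicate 1 and 17.8% in replicate 2. Of the 20 precursors with that many counts, 6 were highest in replicate 1 and 10 in replicate 2. Some reached that minimum only through 1 library, so nothing is read from these shares. The 6 were Sst, Cck, Tac1, Pdyn, Vip and Cartpt. The 7 genes fixed for midbrain and thalamic neurons summed to 2612 CPM in replicate 1, against 67.4, 115 and 44.6 CPM in replicates 2 to 4. Of these, Tcf7l2 made up 2486 CPM in replicate 1, Pou4f2 stood there at 45.6 CPM and Pou4f1 at 19.3 CPM, and all 7 had a count. The list did not move as 1, since Tfap2b stood at 26.5 CPM in replicate 1 against 37.9 CPM in replicate 3, and Lef1 at 6.13 against 12.9 CPM. The 9 genes fixed for brainstem monoamine and acetylcholine neurons summed to 14.9, 127, 20.98 and 117 CPM. They were thus higher in replicate 2, where Calca, Calcb and Crh peaked, and in replicate 4, where these 3 genes were at 0.273 CPM or less. The sum joins genes that differed between these 2 libraries. Th, Dbh and Slc18a2 were highest in replicate 4, at 31.6, 19.1 and 30.5 CPM. The acetylcholine genes Slc5a7, Slc18a3 and Chat were highest in replicate 2, at 35.8, 16.5 and 10.3 CPM, and Slc5a7 stood at 17.7 CPM in replicate 4. Slc6a2 was nearly level, at 13.97 CPM in replicate 2 and 13.1 CPM in replicate 4. All 9 had a count in replicate 2, whereas Tph2 and Slc6a4 had none in replicate 4, and Tph2, Slc6a4, Chat and Slc18a3 had none in replicate 1. Caudal hindbrain Hox genes summed to 1.44 to 7.86 CPM. 

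Inhibitory neurons, some of which are known to make somatostatin or enkephalin, could also give such RNA. Their 5 markers summed to 280, 367, 577 and 313 CPM, and Slc32a1, the vesicular transporter of GABA and glycine, stood at 5.51, 13.8, 29.3 and 1.18 CPM. Sst was lowest in replicate 3, where this list was highest, and Penk was highest in replicate 4, where Slc32a1 was lowest. Purkinje cell markers ran from 598 to 2654 CPM and granule cell markers from 511 to 1209 CPM, both highest in replicate 3. Astrocyte and oligodendrocyte markers were highest in replicate 3 as well, at 810 and 1138 CPM. Microglia, vessel and choroid plexus genes were highest in replicate 2, at 196 CPM, of which Ttr made up 190 CPM. Without Ttr that list was highest in replicate 4, at 14.2 CPM against 6.40 CPM in replicate 2. The part of any of these cells in the peptide values was not tested.

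**Figure D3:**
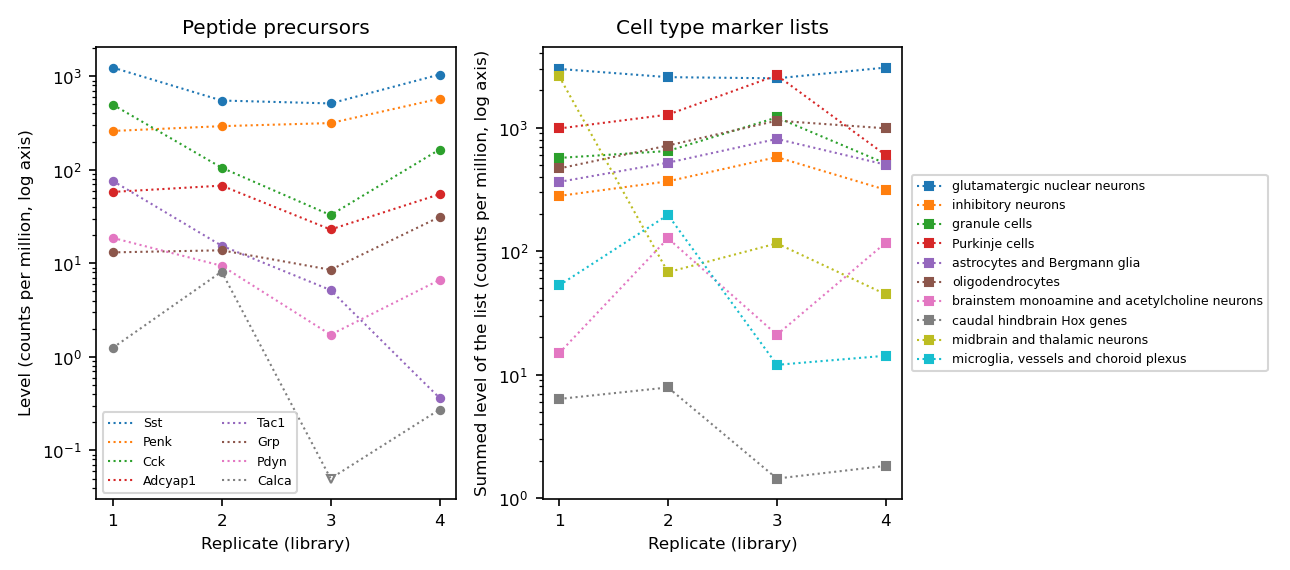
Levels of 8 peptide precursors (left) and summed levels of 10 marker lists (right) in CPM (log axes) by library, where dotted lines only join points of the same gene or list and the open triangle at 0.05 is a library without a count. Sst, Cck, Tac1 and Pdyn peak in replicate 1, and Calca peaks in replicate 2. The midbrain and thalamic list stands at 2612 CPM in replicate 1, of which Tcf7l2 alone makes up 2486 CPM.

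To compare genes with each other, counts were divided by union exon length and scaled to 1000000 over all genes with a length. On this scale Sst stood at 5854 ± 2195 (SD, n = 4), the rank of 5 among all genes with a length. Penk at 1143 ± 474, Chgb at 1054 ± 127, Scg2 at 941 ± 280, Cck at 748 ± 715, Pcsk1n at 726 ± 99.0 and Cpe at 626 ± 126 came next. Neighbours among these genes overlapped in their ranges, and Penk lay above Chgb in 1 library only, and without replicate 1 Cck fell behind Pcsk1n and Cpe. Scg3 at 336 ± 22.5, Scg5 at 228 ± 28.6, Chga at 128 ± 30.0 and Pcsk2 at 126 ± 7.05 followed. The lowest of the 18 were Pdyn at 15.6 ± 11.3 and Pcsk1 at 13.6 ± 5.75. Of the 17 neighbouring steps in the order of the 18 genes, 5 had ranges that did not overlap: Sst over Penk, Cpe over Scg3, Scg3 over Scg5, Scg5 over Chga, and Pcsk2 over Adcyap1.

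**Figure D4:**
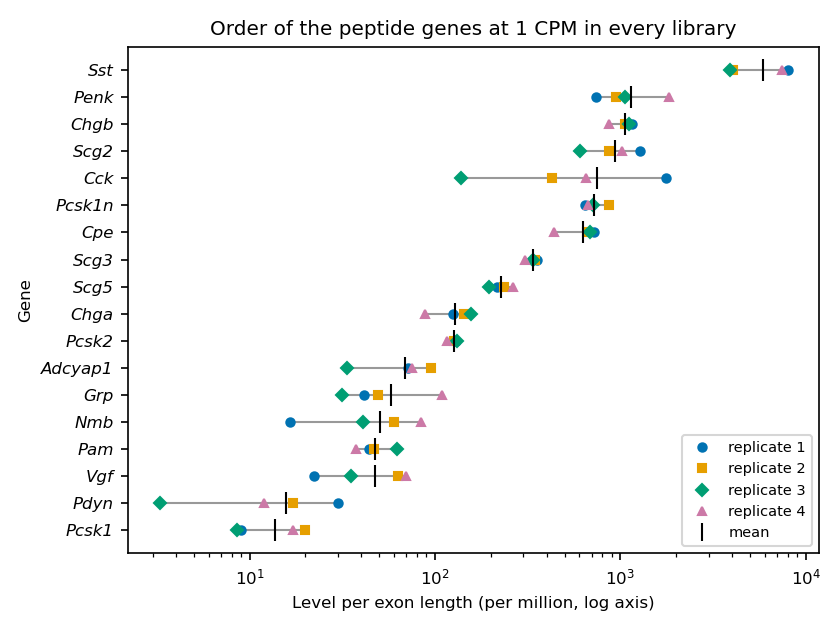
Level per exon length (scaled to 1000000 per library, log axis) of the 18 genes at 1 CPM in every library, ordered by mean, with 1 point per library, grey lines for the range and black ticks for the mean. Sst stands clear of all others at a mean of 5854, and neighbours among the next 6 genes overlap in their ranges.

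Within each library, 22 pairs of related genes were compared per exon length, and 17 kept the same order in 4 of 4 libraries. In 5 of the 17 the lower gene (Cort, Pnoc, Pomc, Tac2 or Vip) had a library with no count, and no ratio is given for them. An exact sign-flip permutation test over 4 libraries cannot go below p = 0.125 (two-sided), which each of these 17 pairs reached, so none can pass. Sst exceeded Penk by a mean log2 ratio of 2.36 ± 0.72 (SD, n = 4), from 1.88 to 3.43, and Cck by 3.44 ± 1.09 (2.73 with the longest transcript as length). Penk exceeded Cck in 3 of 4 libraries only, with ratios from -1.26 in replicate 1 to 2.94 in replicate 3. Among opioid precursors Penk exceeded Pdyn by 6.48 ± 1.62. Of the other precursor pairs, Nmb and Grp changed order between libraries. Calca and Calcb both had no count in replicate 3, and Crh and Ucn both had none in replicates 3 and 4, so no order can be read there. In the remaining libraries Calca lay above Calcb and Crh above Ucn.

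Among granin and enzyme pairs, the SD of the log2 ratio ran from 0.24 for Chgb and Chga to 0.97 for Vgf and Scg2. Chgb exceeded Chga by a log2 ratio of 3.06 ± 0.24, from 2.83 to 3.31, Scg2 exceeded Chga by 2.85 ± 0.73 and Scg3 exceeded Chga by 1.42 ± 0.30. Chgb and Scg2 changed order, with Scg2 higher in replicates 1 and 4 and a Chgb to Scg2 ratio of 0.21 ± 0.51 (exact sign-flip permutation p = 0.625). Vgf lay below Scg2, with a Vgf to Scg2 ratio of -4.40 ± 0.97. Among convertases, Pcsk2 exceeded Pcsk1 by 3.31 ± 0.68, a 9.91-fold difference, from 2.68 in replicate 2 to 3.94 in replicate 3. The inhibitor gene Pcsk1n exceeded Pcsk1 by 5.82 ± 0.54, and the chaperone gene Scg5 exceeded Pcsk2 by 0.85 ± 0.26. The last ratio follows the length used: it was 0.48 with the longest transcript and -1.49 when counts were not divided by length. Cpe exceeded Pcsk2 by 2.28 ± 0.24 and Pam by 3.71 ± 0.26, and the latter was 2.48 with the longest transcript, since Pam has 11892 bases of annotated exon but a longest transcript of 4102 bases.

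Further lists of the pathway were set beside these genes, with levels per exon length. Of 46 other peptide and secreted precursors, 9 reached 1 CPM in every library and 19 had no count at all. The highest were the precerebellin genes Cbln1 at 846 ± 381, Cbln2 at 87.0 ± 74.7 and Cbln4 at 71.3 ± 9.52 and the neurexophilin genes Nxph4 at 230 ± 75.5 and Nxph1 at 84.0 ± 30.0, which encode secreted synaptic proteins. Of 16 other convertases and peptide-modifying enzymes, 10 reached 1 CPM in every library, led by Tpst1, a tyrosine sulfotransferase gene, at 42.9 ± 7.31. The lysosomal protease gene Ctsl at 38.8 ± 17.4, the carboxypeptidase gene Cpd at 34.8 ± 2.43, the glutaminyl cyclase gene Qpct at 27.5 ± 6.37 and the protease gene Mbtps1 at 21.6 ± 4.88 followed.

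Of 20 genes of dense-core vesicle formation and release, 19 reached 1 CPM in every library, with Snap25 at 15222 ± 2264, Rab2a at 1803 ± 519, Rab3a at 1230 ± 350, Syt4 at 431 ± 110 and Resp18 at 410 ± 123. Snap25 and Rab3a serve synaptic vesicles as well. Of 11 extracellular peptidases, which degrade or process released peptides, 8 did so, led by Ece1 at 78.8 ± 11.7, Ide at 59.4 ± 16.7, Lnpep at 29.7 ± 4.78, Ece2 at 27.9 ± 9.18 and Mme, the neprilysin gene, at 25.3 ± 4.42. In the tests of 1 library against the others, edgeR called 0 of the 22, 13, 19 and 9 tested members of these lists in any library. At an unadjusted p under 0.05 the most in any comparison was 6 of 22 other precursors, in replicate 1, where the share over all genes was 3.30%. The filter bears on that list as on the precursors above.

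Many peptide genes are known targets of the cyclic AMP response element, whose full form is TGACGTCA. RefSeq promoters (GRCm38.p6, the build mm10), of which the 250 bases before the start site were searched on both strands, matched 31 of the 39 genes by symbol, and not Penk, Pnoc, Crh, Calcb, Grp, Npff, Vgf and Cpe. The full form was present in 6 of the 31 (19.4%), against 1.77% of 27025 genes with a promoter and 3.32% of those at 1 CPM in every library. Its first 5 bases, TGACG, which the full form contains, were present in 61.3% of the 31, in 19.8% of all and in 32.0% of those at 1 CPM in every library. The genes with the full form were Sst, Chgb, Scg2 and Pcsk1, and Ucn and Cartpt, which did not reach 1 CPM in every library. The first 4 are shown with the motif in capitals and 11 bases on either side, 5′ to 3′ on the strand of the gene, since they include the highest and the lowest of the 18 genes per exon length.
Sst, chr16:23890874-23890903, minus strand: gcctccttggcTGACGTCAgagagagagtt
Chgb, chr2:132781559-132781588, plus strand: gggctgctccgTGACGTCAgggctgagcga
Scg2, chr1:79440076-79440105, minus strand: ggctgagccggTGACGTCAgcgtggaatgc
Pcsk1, chr13:75089768-75089797, plus strand: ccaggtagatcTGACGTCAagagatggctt
The motif begins 48, 72, 68 and 78 bases before the RefSeq start sites of Sst, Chgb, Scg2 and Pcsk1. GENCODE places some start sites further upstream, and there the windows of Sst, Chgb and Scg2 overlap a non-coding part of an exon, while that of Pcsk1 does not. Sst, Chgb and Scg2 had their highest CPM in replicate 1, and Pcsk1 in replicate 2. This motif and its core were the only ones searched, and they were chosen after the levels were seen. A match describes these letters only, and nothing measured here bears on binding.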

How the data were processed

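RNA bound to tagged ribosomes was measured in 4 libraries of 1 group. The authors deposited whole-number counts per gene name for each library. The submitters' processing notes list STAR 2.0.0e, HTSeq and the build mm10, while annotation and strand setting are not given there. Summary rows were kept out of totals: reads with no feature took 14.1 to 21.1% of all rows summed, and alignments that were not unique 14.2 to 20.6%. Rn45s, the ribosomal RNA precursor, took 4.92 to 14.2% of gene counts and stayed in the totals. No pair of libraries was a copy, since counts differed beyond sampling noise in each (chi-square over degrees of freedom 32.9 to 119).

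The members and lists were chosen with earlier results of these data known. All members are named. Of the other pathway lists, the 5 genes highest per exon length are named, and single markers only beside a member that differs between libraries. Exon lengths came from GENCODE release 21 for mouse (mm10) and covered all 39 members, 73.6% of names and 97.3% of genes with 10 counts in each library.

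Each library was tested against the other 3 by edgeR (version 4.0.16, R 4.3.3) with TMM, filterByExpr, a robust quasi-likelihood fit and Benjamini-Hochberg adjustment. The code was also run on simulated counts with the same dispersion for every gene. Dispersions of members, as a CV, ran from 26.2% for Chgb to 170% for Calcb, so that run does not show how the test does for them. A first fit used filterByExpr without the contrast, which asked for the minimum count in every library and removed genes high in only 1. After its output was seen, the filter was changed to the form that knows the contrast, and 0 members were called under either. Alternatives were DESeq2 1.42.0 (its size factors and its Wald test), other filters, totals without Rn45s, other lengths, other counts added to ratios (0.5 in the values given), and leaving out libraries. The first filter was kept as an alternative once it had been replaced. TMM totals for the spread, levels without replicate 1 and levels without Rn45s were added after seeing the data, as was the choice of genes in the plots. The comparison of precursor proteins that had been planned was not run, as protein sequences were not used here, and coding bases are shown in their place.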

Additional observations from a re-analysis of the deposited data

Results flagged for a closer look

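Of the 31 peptide genes with at least 10 counts, 5 had 1 library far from the other 3, by a gap to the nearest library that passed Dixon's 95% critical value as a share of the whole range. Chance alone gives about 1 in 20 groups, and over all 15893 genes with at least 10 counts the share was 12.6%, against 16.1% here. In 4 of the 5 the far library was replicate 2, which was the highest: Calca at 8.15 CPM, Calcb at 3.69 CPM, Pnoc at 2.13 CPM and Nmu at 1.36 CPM. These are 84, 38, 22 and 14 counts. Calcb, Pnoc and Nmu, unlike Calca, reached 10 counts only through replicate 2, so that the minimum largely fixes which library is far, and nothing is read from their sharing it. The markers of brainstem monoamine and acetylcholine neurons summed to 127 CPM in replicate 2 and to 117 CPM in replicate 4. Calca, Calcb, Pnoc and Nmu stood at 0.273 CPM or less in replicate 4. Single markers differed, and Slc5a7, Slc18a3 and Chat were highest in replicate 2, at 35.8, 16.5 and 10.3 CPM. Th, Dbh and Slc18a2 were highest in replicate 4, at 31.6, 19.1 and 30.5 CPM. The part of these markers was not tested. The fifth gene was Chga, where replicate 4 was the lowest at 46.9 CPM, against 73.9 to 79.2 CPM in the others.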

How the results depend on the processing

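No paired analysis was possible because the 4 libraries form 1 group. DESeq2's Wald test called 26, 7, 81 and 380 genes for replicates 1 to 4, where edgeR called 3, 0, 0 and 7. Of members, it called 1 in replicate 3 and 2 in replicate 4. With no filter on low counts, edgeR called 32, 86 and 416 genes for replicates 1, 3 and 4, among them 2, 1 and 2 members. The filter of the first fit asked for the minimum in every library and was replaced after its output was seen. It left 1 gene for replicate 1. Leaving out 1 of the other libraries gave 2 to 24 genes for replicate 1, 1 to 7 for replicate 2, 1 to 37 for replicate 3 and 1 to 101 for replicate 4, with 0 to 1 members for replicates 1, 3 and 4. The member was Tac1 for replicate 1 without replicate 3, Cck for replicate 3 without replicate 2, and Tac1 for replicate 4 without replicate 2 or without replicate 3. The cause was not tested. The count of genes at 1 CPM in every library was 18 to 21, and 17 to 18 of 22 pairs kept their order, over all alternatives run. The ratio Scg5/Pcsk2 reversed to -1.49 without division by length, since Pcsk2 has 7910 bases of exon and Scg5 1569. With 2 residual degrees of freedom and 9621762 to 10988373 counts per library, genes of a few counts were not told apart.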

Other observations

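Among the precursors outside the 40 genes, 2 had levels that were high in replicates 2 and 4, and they were singled out after their values were seen. Nps, the neuropeptide S precursor, known from neurons near the locus coeruleus, stood at 2.70, 30.8, 1.15 and 36.9 CPM in replicates 1 to 4. Ghrh, the growth hormone-releasing hormone gene, stood at 0.831, 7.47, 0.958 and 8.01 CPM. Dbh, which marks noradrenergic neurons, stood at 1.04, 7.28, 0 and 19.1 CPM, and its part in these values was not tested.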
